A study of Homo sapiens with 6 samples.

Results

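Transcripts of 50 genes that act in G2 and in mitosis were compared between Ju77 cells resistant to ADI-PEG20 and parental Ju77 cells. The genes were taken from a list of symbols, among them the mitotic cyclins and kinases, the kinesin motors, kinetochore proteins and the proteins that start anaphase and cytokinesis. Of the 50 genes, 49 had a named probe on the array, which names 20044 genes in all. KIF18B, a kinesin, had none in the annotation used. All 49 were detected on all 6 arrays and were tested among 10672 detected genes. Together they have 71 probes, of which 69 passed the detection filter. Ju77 is a human malignant mesothelioma line. The drug ADI-PEG20, arginine deiminase coupled to polyethylene glycol, breaks down arginine outside the cell. The series holds 3 arrays of ADI-PEG20 resistant Ju77 cells and 3 of parental Ju77 cells, with RNA taken the day after plating, and the sources used here do not say whether the drug was in the medium then. The study's single question is how expression in the resistant line departs from that in its parent. Each group is 1 line, so resistance and other changes between the lines cannot be told apart. Nothing in the labels makes the replicates separate cultures, and the p-values rest on the spread of these arrays alone, which may be technical.

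A cell that has copied its DNA enters mitosis when cyclin A and cyclin B bind the kinase CDK1 and CDC25 phosphatases remove its inhibitory phosphates. Kinases of the Aurora and Polo families and kinesin motors then build the spindle, and kinetochores tie each chromosome to it. The spindle checkpoint holds back the anaphase-promoting complex until all kinetochores are attached. That complex, with CDC20, then marks securin and cyclin B for destruction, which frees separase to cut the chromosomes apart, and cytokinesis follows. Many of these genes are transcribed in G2 under FOXM1 and the MYB-MuvB complex, and are held down outside it by the DREAM complex. In a growing culture their transcripts come mainly from the cells that are in G2 and M. In bulk RNA, fewer cells in these phases and less transcript per cell cannot be told apart.

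In promoters of such genes the DREAM and MYB-MuvB complexes bind a short element called the CHR, with the letters TTTGAA or TTCGAA, and the factor NF-Y binds CCAAT boxes. RefSeq promoter windows, from 250 bases before to 50 bases after the start (GRCh38.p14), were at hand for 43 members, and were searched for these letters on both strands. TPX2, TTK, AURKA, RACGAP1, FOXM1, BIRC5 and UBE2C had no entry. The letters of either CHR form stood in the window of 35 of 43 members (81.4%), against 15.8% of 8683 tested genes with an entry. CCAAT stood in 36 of them (83.7%), against 44.2% of tested genes. The 100 bases before the start are shown for the 5 members with the largest falls, all with 1 annotated start, and then for 3 members whose difference did not pass the test (CCNB2, KIF4A and GTSE1, picked as examples after their values were seen). Capitals mark the CHR letters and the CCAAT box, which reads ATTGG on the other strand, and in MKI67 a CHR and a CCAAT box share 1 base.
ESPL1, chr12:53268199-53268298, plus strand: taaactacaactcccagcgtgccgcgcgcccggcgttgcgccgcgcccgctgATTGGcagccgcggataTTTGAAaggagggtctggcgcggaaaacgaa
MKI67, chr10:128126424-128126523, minus strand: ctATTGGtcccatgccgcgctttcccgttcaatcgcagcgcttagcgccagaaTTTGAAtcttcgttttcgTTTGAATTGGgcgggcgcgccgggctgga
CDC20, chr1:43358881-43358980, plus strand: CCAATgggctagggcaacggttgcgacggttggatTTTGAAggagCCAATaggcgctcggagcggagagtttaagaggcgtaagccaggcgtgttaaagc
ANLN, chr7:36389762-36389861, plus strand: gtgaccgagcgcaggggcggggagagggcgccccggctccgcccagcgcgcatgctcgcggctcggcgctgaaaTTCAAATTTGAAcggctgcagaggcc
HMMR, chr5:163460532-163460631, plus strand: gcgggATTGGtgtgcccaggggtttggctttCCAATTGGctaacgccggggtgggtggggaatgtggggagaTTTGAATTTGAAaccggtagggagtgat
CCNB2, chr15:59105046-59105145, plus strand: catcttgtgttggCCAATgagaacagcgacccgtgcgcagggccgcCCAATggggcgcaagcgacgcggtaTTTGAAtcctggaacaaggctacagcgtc
KIF4A, chrX:70290004-70290103, plus strand: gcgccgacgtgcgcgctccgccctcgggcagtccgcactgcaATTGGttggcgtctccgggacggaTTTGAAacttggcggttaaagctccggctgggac
GTSE1, chr22:46296770-46296869, plus strand: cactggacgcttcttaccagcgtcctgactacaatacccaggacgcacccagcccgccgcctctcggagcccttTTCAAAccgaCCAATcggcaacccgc
ANLN and HMMR each have a pair of CHR matches directly side by side, and MKI67 has a pair further apart. The letters did not mark out the members that fell in the resistant cells. In the whole window a CHR form stood in 18 of 25 members that fell and in 16 of 17 other tested members. In the 100 bases before the start it stood in 12 of 25 and 9 of 17. A match describes the letters of the window and shows no binding.

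The arrays had similar numbers of detected probes, while every resistant array was dimmer in mean probe intensity than every parental array. Between 19024 and 20113 probes were detected per array, and the mean probe intensity ran from 415 to 454 on the resistant arrays and from 470 to 499 on the parental arrays. Of 11 mesothelial markers 8 were tested, with CALB2, WT1, MSLN and LRRN4 detected on all arrays, PDPN on 1 of 3 resistant arrays, and UPK3B, KRT5 and THBD below the filter. Of 6 leukocyte and 6 fibroblast markers 1 each passed the filter (CD68 and MFAP5), and PTPRC, CD3E, DCN and LUM did not. Single markers of these lists moved with the groups: CALB2 and MFAP5 rose by 2.74 and 3.06 on the log2 scale, CD68 by 0.25, and PDPN, LRRN4, BNC1 and KRT19 fell by 2.38, 0.79, 0.61 and 0.29. Their part in the results was not tested.

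As a group the genes were lower in the resistant cells. Of 49 tested members 29 fell and 1 rose at an adjusted p under 0.05 (limma, resistant minus parental, adjusted over all 10672 genes). Over all tested genes 23.0% were called lower and 22.4% higher. These shares are also the background for the counts by role given below. The difference was negative for 45 of 49 members. Its median was -0.37 on the log2 scale, beside -0.0040 over all tested genes. The falls were small: they lay between 1.23-fold (CENPF) and 1.96-fold (ESPL1), with a median of 1.40-fold, and 20 of the 29 were under 1.5-fold. The largest falls, of ESPL1 and MKI67, came from dim probes and were -0.41 and -0.32 on the log2 scale without background correction. In 35 members all resistant arrays lay below all parental arrays, and in 1 all lay above. Over all tested genes the share without overlap was 28.6% lower and 27.4% higher. Since the list was drawn up with results of these arrays known, its size of shift is a description and was given no test of its own. The median over the 49 members was 9.28, 9.23 and 9.07 on the resistant arrays against 9.63, 9.62 and 9.61 on the parental arrays. The lower level was thus present on each resistant array. Scaling arrays to a common median in place of quantile normalisation moved the median of all genes by -0.15 and that of the members to -0.56, or -0.41 relative to all genes, with 39 members lower.

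**Figure D1:**
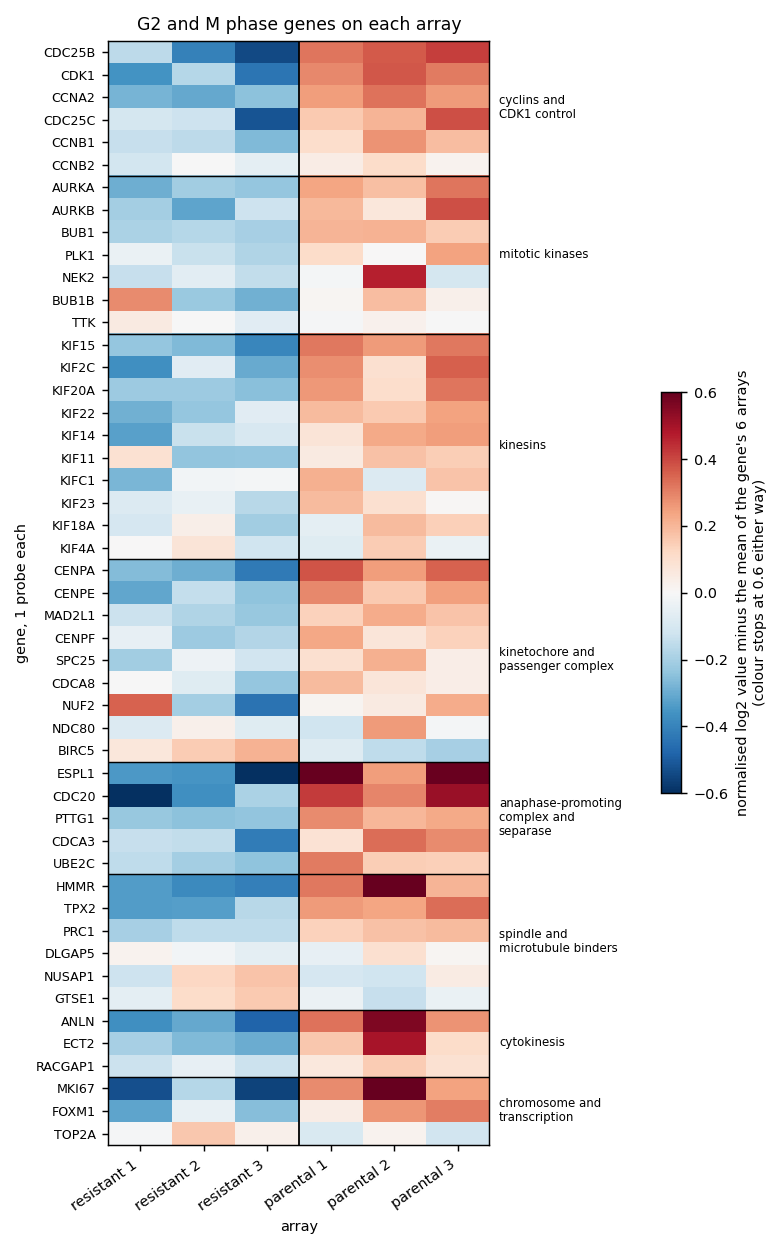
Normalised log2 value of each of the 49 tested genes (rows, by role) on the 3 resistant and 3 parental arrays (columns), as the difference from the gene's mean over its 6 arrays, in colour. Most rows are blue on the resistant side and red on the parental side, and BIRC5 shows the opposite order.

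The cyclins and the genes that switch on CDK1 were mostly lower, with 5 of 6 past the test. CDK1, the kinase that drives entry into mitosis, had log2 values of 9.97, 10.16 and 9.89 on the resistant arrays against 10.62, 10.70 and 10.64 on the parental arrays. The log2 difference was -0.65 (SE 0.09, 1.57-fold, adjusted p = 8.48e-04, lower). A second CDK1 probe fell by 0.66 in the fit over all 17843 detected probes. CCNA2, cyclin A, which acts in S phase and early mitosis, had 10.31, 10.27 and 10.34 on the resistant arrays against 10.83, 10.91 and 10.84 on the parental arrays and fell by 0.55 (SE 0.07, 1.47-fold, adjusted p = 6.14e-04). Neither gene's groups overlapped, and the SD of CDK1 was 0.14 on the resistant arrays and 0.04 on the parental arrays.

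Of the 2 B-type cyclins CCNB1 passed the test and CCNB2 did not. CCNB1, the main partner of CDK1 in mitosis, averaged 9.15 ± 0.07 in the resistant cells and 9.52 ± 0.08 in the parental cells (SD, n = 3 each) and fell by 0.37 (SE 0.08, 1.29-fold, adjusted p = 0.00752), or by 0.57 under median scaling. CCNB2, its Golgi-linked relative, had 12.03, 12.14 and 12.08 on the resistant arrays against 12.19, 12.25 and 12.16 on the parental arrays, a log2 difference of -0.12 (95% interval -0.29 to 0.06, adjusted p = 0.241). Its resistant arrays all lay below its parental arrays, by a margin too small to pass the test. Under median scaling CCNB2 had -0.28 and passed the test (adjusted p = 0.0191), its only call in 19 other settings. Whether the CCNB1 and CCNB2 differences differ from each other was not tested. CDC25B, the phosphatase that starts CDK1 activation in G2, had 9.63, 9.38 and 9.24 on the resistant arrays against 10.11, 10.15 and 10.20 on the parental arrays and fell by 0.74 (SE 0.11, 1.67-fold, adjusted p = 9.93e-04). CDC25C, which completes that activation, fell by 0.50 (adjusted p = 0.0137), and its other probes fell by 0.66 and 0.38. Without background correction the CDC25C difference was -0.29, and without parental replicate 3 its adjusted p was 0.0502.

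Among the mitotic kinases 3 of 7 fell and the others did not pass the test. AURKA, which matures the spindle poles, had 10.85, 10.93 and 10.90 on the resistant arrays against 11.37, 11.32 and 11.46 on the parental arrays and fell by 0.49 (SE 0.08, 1.40-fold, adjusted p = 0.00151), with a second probe lower by 0.55. AURKB, the kinase of the chromosomal passenger complex, which corrects faulty attachments, averaged 9.83 ± 0.10 in the resistant cells and 10.26 ± 0.16 in the parental cells (SD, n = 3 each) and fell by 0.43 (SE 0.10, 1.35-fold, adjusted p = 0.0105). BUB1, a checkpoint kinase that also marks the centromere, had 8.92, 8.93 and 8.91 on the resistant arrays against 9.31, 9.32 and 9.26 on the parental arrays and fell by 0.37 (SE 0.07, 1.30-fold, adjusted p = 0.00374). These 3 kinases had no overlap between groups.

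PLK1, the Polo kinase of spindle poles, kinetochores and cytokinesis, had 7.71, 7.61 and 7.57 on the resistant arrays against 7.86, 7.75 and 7.99 on the parental arrays. Its groups did not overlap either, but the log2 difference was -0.23 (95% interval -0.44 to -0.03, adjusted p = 0.0650). Without parental replicate 2 it was -0.30 and passed the test (adjusted p = 0.0444). PLK1 was called in 3 of 19 other settings, over which its difference ran from -0.39 to -0.16. NEK2, which parts the centrosomes, had 8.49, 8.57 and 8.48 on the resistant arrays against 8.62, 9.10 and 8.53 on the parental arrays. There 1 parental array stood above the other 5 arrays, and the difference was -0.23 (95% interval -0.57 to 0.10, adjusted p = 0.220). NEK2 was called in 1 of 19 other settings, median scaling. BUB1B, the checkpoint protein BubR1, and TTK, the kinase MPS1 that starts the checkpoint, overlapped between groups. Their differences were -0.15 (95% interval -0.50 to 0.20, adjusted p = 0.441) for BUB1B and -0.01 (95% interval -0.18 to 0.16, adjusted p = 0.932) for TTK. Without resistant replicate 1 the BUB1B difference was -0.33 and passed the test (adjusted p = 0.0259). BUB1B was called in 1 of 19 other settings, over which its difference ran from -0.33 to -0.04. The TTK interval holds no change of 1.5-fold or more in either direction.

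**Figure D2:**
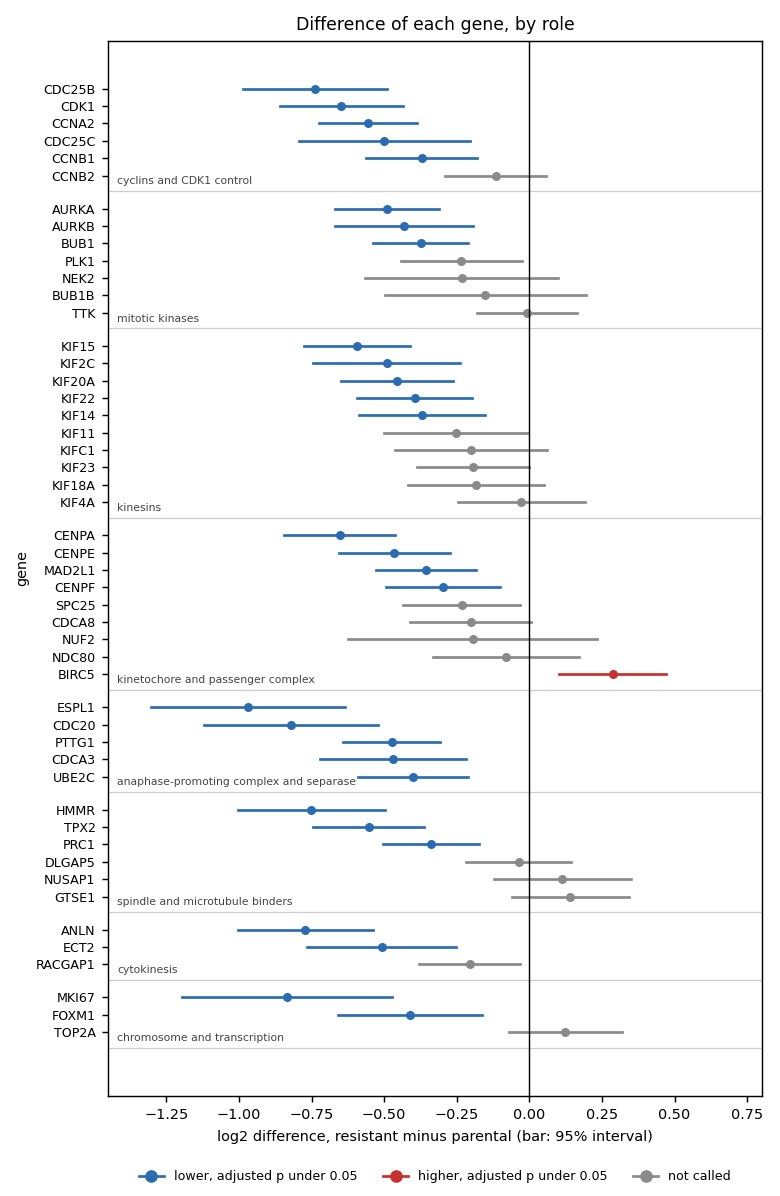
Log2 difference between resistant and parental cells (x axis, points) with its 95% interval (bars) for each of the 49 tested genes, by role. Blue genes passed the test as lower (29), the red gene, BIRC5, as higher, and 19 grey genes did not pass.

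Kinesins, the motors that slide, sort and shorten spindle microtubules, were represented by 10 tested genes, of which 5 fell. KIF15, which backs up KIF11 in keeping the spindle bipolar, had 7.84, 7.80 and 7.67 on the resistant arrays against 8.38, 8.32 and 8.38 on the parental arrays and fell by 0.59 (SE 0.08, 1.51-fold, adjusted p = 6.61e-04). KIF2C, the microtubule depolymerase MCAK of the centromere, averaged 8.52 ± 0.16 in the resistant cells and 9.01 ± 0.13 in the parental cells (SD, n = 3 each) and fell by 0.49 (SE 0.11, 1.41-fold, adjusted p = 0.00763). KIF20A, which carries the passenger complex to the midzone in anaphase, had 10.06, 10.06 and 10.02 on the resistant arrays against 10.53, 10.38 and 10.59 on the parental arrays and fell by 0.46 (SE 0.08, 1.37-fold, adjusted p = 0.00303). In none of these 3 did the groups overlap. KIF22, a chromosome-arm motor, and KIF14, a motor of cytokinesis, fell by 0.39 and 0.37 (adjusted p = 0.00682 and 0.0134). Under median scaling KIF22 had -0.60, and KIF14 lost its call without parental replicate 3 (adjusted p = 0.0503).

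The other 5 kinesins, all with negative differences, did not pass the test. KIF11, the motor that pushes the poles apart, had -0.25 (95% interval -0.50 to -0.00, adjusted p = 0.0900) at its brightest probe. Its second probe passed, lower by 0.39 (adjusted p = 0.0130 over all probes), and KIF11 was called in 8 of 19 other settings. KIF23, a motor of the central spindle, had -0.19 (95% interval -0.39 to -0.00, adjusted p = 0.0910), with 0.11 at a dimmer probe. At the brighter probe its groups did not overlap, and KIF23 was called in 4 of 19 other settings. The remaining differences were -0.20 (95% interval -0.46 to 0.06, adjusted p = 0.180) for KIFC1, a minus-end motor that focuses spindle poles, and -0.18 (95% interval -0.42 to 0.05, adjusted p = 0.172) for KIF18A, which limits chromosome movement. KIFC1 and KIF18A were each called in 1 of 19 other settings, median scaling. KIF4A, the chromosome-bound motor that shapes the central spindle, had 8.20, 8.28 and 8.08 on the resistant arrays against 8.13, 8.35 and 8.16 on the parental arrays. These values overlapped, and the difference was -0.03 (95% interval -0.25 to 0.19, adjusted p = 0.837).

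At the kinetochore and centromere 4 of 9 genes fell and 1 rose. CENPA, the histone H3 variant that marks the centromere, had 8.99, 8.96 and 8.83 on the resistant arrays against 9.63, 9.50 and 9.61 on the parental arrays and fell by 0.65 (SE 0.08, 1.57-fold, adjusted p = 5.00e-04). Its second probe fell by 0.48. CENPE, a kinesin of the kinetochore that brings chromosomes to the spindle equator, averaged 8.87 ± 0.08 in the resistant cells and 9.33 ± 0.07 in the parental cells (SD, n = 3 each) and fell by 0.46 (SE 0.08, 1.38-fold, adjusted p = 0.00264). MAD2L1, the checkpoint protein MAD2 that restrains CDC20, had 10.84, 10.78 and 10.74 on the resistant arrays against 11.10, 11.19 and 11.14 on the parental arrays and fell by 0.36 (SE 0.07, 1.28-fold, adjusted p = 0.00587). Under median scaling MAD2L1 had -0.56. A dimmer MAD2L1 probe had -0.36 and did not pass the test (adjusted p = 0.0583 over all probes). In these 3 genes the groups lay apart. CENPF, an outer kinetochore protein, fell by 0.30 (adjusted p = 0.0221), and lost its call when any of 4 arrays was left out (resistant replicate 2 or 3, parental replicate 1 or 3, adjusted p up to 0.0823). Under median scaling it had -0.48.

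The NDC80 complex, which holds the end of the microtubule, had no member past the test. NDC80 had a log2 difference of -0.08 (95% interval -0.33 to 0.17, adjusted p = 0.575), and SPC25 had -0.23 (95% interval -0.43 to -0.03, adjusted p = 0.0586). SPC25 did not overlap between groups at this probe, its dimmer probe had 0.14, and it was called in 6 of 19 other settings. NUF2 had 7.95, 7.40 and 7.16 on the resistant arrays against 7.62, 7.65 and 7.82 on the parental arrays. Its resistant arrays ranged over 0.80 log2 units, the widest of any member in a group, and the difference was -0.20 (95% interval -0.62 to 0.23, adjusted p = 0.422). Without resistant replicate 1 it was -0.42 and passed the test (adjusted p = 0.0230). NUF2 was called in 1 of 19 other settings, over which its difference ran from -0.42 to -0.02.

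Members of the passenger complex had different signs. Survivin (BIRC5), which anchors the complex and also blocks cell death, was the member that rose. It had 10.66, 10.74 and 10.80 on the resistant arrays against 10.51, 10.43 and 10.39 on the parental arrays, a log2 difference of 0.29 (SE 0.08, 1.22-fold, adjusted p = 0.0196). Its dimmer probe had 0.08 (adjusted p = 0.494 over all probes). The BIRC5 call did not hold in 6 of 19 other settings, which were median scaling (0.11), the mean of both probes (0.18) and leaving out any of 4 arrays (resistant replicate 2 or 3, parental replicate 2 or 3, adjusted p from 0.0517 to 0.0736). CDCA8, the subunit borealin, had -0.20 (95% interval -0.41 to 0.01, adjusted p = 0.104), beside the fall of AURKB given above. CDCA8 was called in 3 of 19 other settings. INCENP, a further subunit that is not among the members, fell by 0.52 (adjusted p = 0.0108) without overlap between groups. It was named after its value was seen.

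The 5 genes around the anaphase-promoting complex and separase all fell, and none overlapped between groups. CDC20, the activator that turns the complex on at anaphase, had 11.52, 11.82 and 12.00 on the resistant arrays against 12.61, 12.48 and 12.71 on the parental arrays. It fell by 0.82 (SE 0.13, 1.77-fold, adjusted p = 0.00148), with the resistant arrays spread over 0.48 log2 units. PTTG1, securin, the inhibitor of separase, had 11.22, 11.20 and 11.21 on the resistant arrays against 11.73, 11.65 and 11.68 on the parental arrays and fell by 0.47 (SE 0.07, 1.39-fold, adjusted p = 0.00125), with a second probe lower by 0.62. UBE2C, the ubiquitin-conjugating enzyme of the complex, averaged 11.49 ± 0.04 in the resistant cells and 11.89 ± 0.10 in the parental cells (SD, n = 3 each) and fell by 0.40 (SE 0.08, 1.32-fold, adjusted p = 0.00534). CDCA3, a trigger of mitotic entry that is itself a substrate of the complex, fell by 0.47 (adjusted p = 0.00921). The activator and the conjugating enzyme of the complex and the inhibitor of separase were thus lower together.

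ESPL1, separase, the protease that cuts cohesin, had the largest fall of the 49 genes and is a dim one. Its log2 values were 5.84, 5.83 and 5.43 on the resistant arrays against 6.79, 6.44 and 6.78 on the parental arrays, and it fell by 0.97 (SE 0.14, 1.96-fold, adjusted p = 0.00110). The intensities before correction were 159, 146 and 137 on the resistant arrays against 220, 193 and 229 on the parental arrays, beside a median probe of 119 to 132 per array. Without background correction its log2 difference was -0.41, still past the test. The direction was therefore the same on both scales while the size was not.

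Of the proteins that bundle and organise spindle microtubules 3 of 6 fell. HMMR, a spindle-pole protein and hyaluronan receptor, had 8.64, 8.59 and 8.56 on the resistant arrays against 9.29, 9.57 and 9.18 on the parental arrays and fell by 0.75 (SE 0.11, 1.68-fold, adjusted p = 0.00100). TPX2, which activates AURKA and starts microtubules near chromosomes, averaged 9.46 ± 0.10 in the resistant cells and 10.01 ± 0.05 in the parental cells (SD, n = 3 each) and fell by 0.55 (SE 0.08, 1.47-fold, adjusted p = 0.00116). PRC1, which crosslinks the central spindle, had 11.24, 11.28 and 11.29 on the resistant arrays against 11.58, 11.62 and 11.63 on the parental arrays and fell by 0.34 (SE 0.07, 1.26-fold, adjusted p = 0.00617). Under median scaling PRC1 had -0.54. DLGAP5, a microtubule stabiliser, had -0.04 (95% interval -0.22 to 0.14, adjusted p = 0.725) at its brightest probe. Its other probe, nearly as bright, did not overlap between groups and had -0.21 (adjusted p = 0.0585 over all probes).

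NUSAP1 and GTSE1 were among the 4 members with positive differences. NUSAP1, a microtubule bundler, had 0.11 (95% interval -0.12 to 0.35, adjusted p = 0.398) at its brightest probe. Its second probe passed the test in the other direction, at -0.30 (adjusted p = 0.0349 over all probes), so the gene has no settled direction here. GTSE1, a plus-end protein that also restrains p53 in G2, had 0.14 (95% interval -0.06 to 0.34, adjusted p = 0.222). Under median scaling NUSAP1 had -0.09 and GTSE1 had -0.0021.

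Of 3 genes of cytokinesis 2 fell. ANLN, anillin, which organises the contractile ring, had 9.73, 9.79 and 9.62 on the resistant arrays against 10.43, 10.66 and 10.37 on the parental arrays and fell by 0.77 (SE 0.10, 1.71-fold, adjusted p = 5.70e-04). ECT2, the exchange factor that activates RhoA at the cleavage plane, averaged 9.28 ± 0.05 in the resistant cells and 9.79 ± 0.21 in the parental cells (SD, n = 3 each) and fell by 0.51 (SE 0.11, 1.42-fold, adjusted p = 0.00713). RACGAP1, the centralspindlin subunit that recruits ECT2, had a log2 difference of -0.21 (95% interval -0.38 to -0.03, adjusted p = 0.0538). It did not overlap between groups, was called in 6 of 19 other settings, and had 0.01 at a dimmer probe.

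The remaining members act on chromosomes and on transcription. MKI67, the Ki-67 protein that coats mitotic chromosomes and is used as a proliferation marker, had 5.39, 5.75 and 5.36 on the resistant arrays against 6.20, 6.64 and 6.16 on the parental arrays and fell by 0.84 (SE 0.16, 1.78-fold, adjusted p = 0.00343). Its intensities before correction were 144, 143 and 135 on the resistant arrays against 181, 206 and 186 on the parental arrays, beside the same median probe. The MKI67 difference was -0.32 without background correction and -0.53 with an offset of 50. FOXM1, the transcription factor that drives G2 genes, averaged 7.54 ± 0.14 in the resistant cells and 7.95 ± 0.14 in the parental cells (SD, n = 3 each) and fell by 0.41 (SE 0.11, 1.33-fold, adjusted p = 0.0151). A second FOXM1 probe did not pass (-0.21, adjusted p = 0.303 over all probes), and the call was lost without parental replicate 3 (adjusted p = 0.0564). TOP2A, the topoisomerase that untangles sister chromosomes, had 12.03, 12.20 and 12.07 on the resistant arrays against 11.94, 12.05 and 11.92 on the parental arrays, a difference of 0.12 (95% interval -0.07 to 0.32, adjusted p = 0.259), and -0.07 under median scaling. TOP2A, NUSAP1, GTSE1 and BIRC5 are thus the members with a positive difference at the probe used.

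Over the 69 detected probes 40 were lower and 1 higher in the fit over all 17843 probes, of which 20.2% were lower and 18.7% higher. In 19 genes with more than 1 detected probe, 8 had all probes lower, 4 had some lower and some not past the test, 6 had none past it, and BIRC5 had 1 higher. In 4 genes (KIF23, NUSAP1, RACGAP1 and SPC25) the probes had opposite signs, and in none were they called in opposite directions. The 2 undetected probes belong to KIF18A and NUF2.

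**Figure D3:**
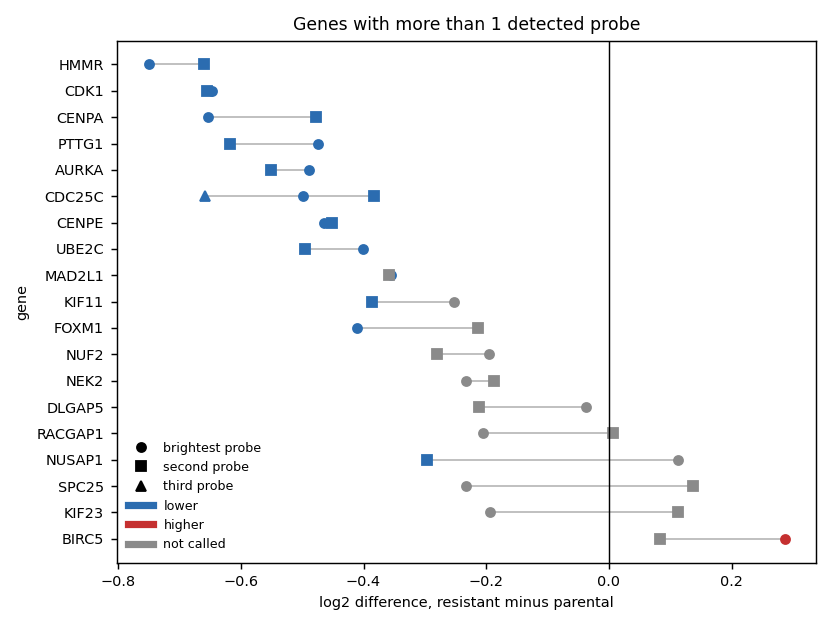
Log2 difference between resistant and parental cells (x axis) of each detected probe of the 19 genes with more than 1 (rows), with the shape for its rank by brightness and the colour for its call. Probes of CDK1, CENPE and MAD2L1 nearly coincide, whereas those of NUSAP1, SPC25 and KIF23 lie on both sides of 0.

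To compare each member with genes of the same region, it was set beside the median of its 20 nearest tested genes that are not members. Members lay on 18 chromosomes. The neighbour medians ran from -0.55 (ANLN, chromosome 7) to 0.48 (GTSE1, chromosome 22), with a median of -0.03. Of 49 members 45 lay below their neighbours, among them all 29 that fell, and the median of the differences was -0.31. ANLN less its neighbours was -0.22, and KIF15, on chromosome 3, less its neighbours was -0.18. CDC20 and CENPA lay -0.88 and -0.78 from their neighbours, which were slightly higher in the resistant cells. GTSE1 and CCNB2, which did not pass the test, lay -0.34 and -0.40 from neighbours that were higher. All 9 members on chromosomes 5 and 20 fell, where the neighbour medians were negative too. The part of position in these values was not tested further.

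**Figure D4:**
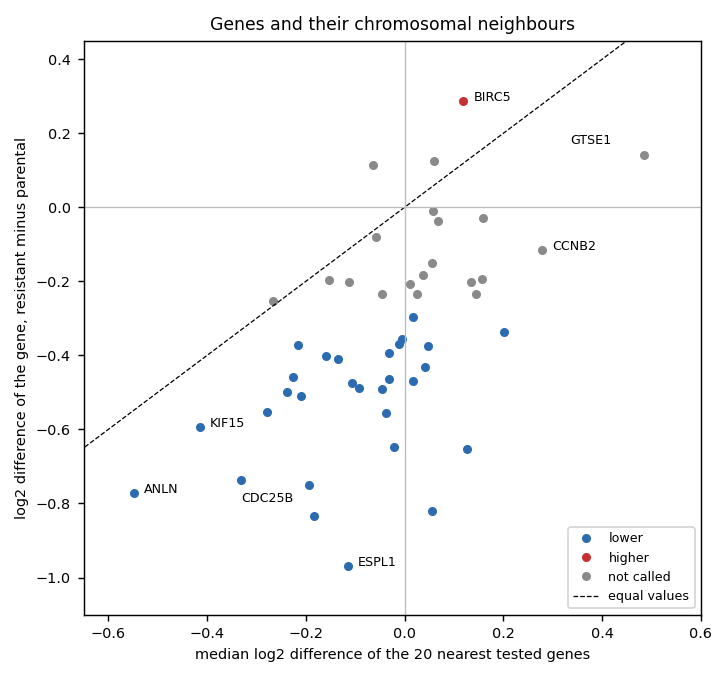
Log2 difference of each of the 49 genes (y axis) against the median log2 difference of its 20 nearest tested genes on the chromosome (x axis), with the dashed line for equal values. Of the points 45 lie below the line, with ANLN at the left end and GTSE1 at the right end.

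Other genes of cell division, from lists that leave out the 49, were counted in the same fit. The shares over all tested genes were 23.0% lower and 22.4% higher. Of 36 other centromere and kinetochore genes 19 fell (52.8%) and none rose (limma, also none at an unadjusted p under 0.05). MAD1L1, the checkpoint partner of MAD2, fell by 1.07 (-0.39 without background correction, -0.47 as the mean of its probes), ZWINT by 0.94, CENPI by 0.75 (-0.42 without background correction) and SKA3 by 0.66. Of 18 other mitotic kinases and entry genes 13 fell (72.2%) and 2 rose (11.1%). PBK, MELK and NEK7 fell by 1.00, 0.61 and 0.66, and NEK6 rose by 0.93. WEE1, the kinase that inhibits CDK1 and the other gene that rose, named after its value was seen, had a difference of 0.41. Of 18 other motors and cytokinesis genes 11 fell (61.1%) and none rose (1 at an unadjusted p under 0.05). FAM83D, DEPDC1B, KIF20B and DEPDC1 led with falls of 0.89, 0.73, 0.63 and 0.60. This list also holds kinesins that carry cargo, named after their values were seen. Of these KIF3B and KIF5B fell by 0.37 and 0.22, and KIF13A had the list's 1 positive difference (0.36, not called).

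Of 7 condensin genes 5 fell (71.4%). SMC4 fell by 0.62, SMC2 by 0.48 (lost as the mean of its probes, -0.13), NCAPD3 by 0.46 and NCAPG2 by 0.38. NCAPG2 was not called when any of 4 arrays was left out (resistant replicate 1 or 3, parental replicate 1 or 3, adjusted p up to 0.0804). Of 11 cohesin genes and protectors 4 fell (36.4%) and 2 rose (18.2%), beside 23.0% lower and 22.4% higher over all tested genes, and nothing is read from counts so near that background. STAG1 and SGO1, the guardian of centromeric cohesin, fell by 0.69 and 0.53, and STAG2 and PDS5B rose by 0.47 and 0.47. The STAG2 call was lost under median scaling (0.29), at another of its probes (0.25) and without parental replicate 1 or 3, and the PDS5B call as the mean of its probes (0.11). Of 15 other subunits and partners of the anaphase-promoting complex 5 fell (33.3%) and 1 rose, again near the share of all genes that fell, with CDC16 and ANAPC10 lower by 0.50 and 0.40 (-0.60 for ANAPC10 under median scaling). ANAPC7 fell by 0.35 and ANAPC2 rose by 0.55, and neither call held throughout. ANAPC2 was detected on 3 resistant arrays but only 2 parental arrays, so it passed the filter through the resistant arrays alone. Its mean log2 value was 5.47 in the resistant cells and 4.92 in the parental cells. ANAPC2 was tested in only 18 of the other settings. ANAPC7 was not called without any 1 of 5 arrays (all but parental replicate 2) or with no detection filter (adjusted p = 0.0695), and ANAPC2 was not called without resistant replicate 1 or 2 or parental replicate 2. Without background correction ANAPC2 had 0.16 and ANAPC7 -0.18.

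Upstream of these genes, the CDK inhibitors and the complexes that bind the CHR were measured. Of 5 tested CDK inhibitors 2 fell and 2 rose (40% each), beside 23.0% lower and 22.4% higher over all tested genes. CDKN1A, the inhibitor p21, had 12.82, 13.08 and 13.13 on the resistant arrays against 12.26, 12.14 and 12.25 on the parental arrays and rose by 0.79 (SE 0.10, 1.73-fold, adjusted p = 4.87e-04). CDKN2B, the inhibitor p15, rose by 1.70 (SE 0.09, 1.07 without background correction). Among the others CDKN2D, p19, fell by 0.64 (-0.34 without background correction) and CDKN1B, p27, fell by 0.37 (-0.23). CDKN1C had 0.10 (95% interval -0.20 to 0.40, adjusted p = 0.570), and CDKN2A did not pass the detection filter. Of 13 genes of the DREAM and MYB-MuvB complexes 6 fell (46.2%) and 2 rose (15.4%). RBL2 rose by 0.41 and LIN37 by 0.30, both named after their values were seen. TFDP1, the partner of E2F factors, fell by 0.67, E2F5 by 0.62, RBL1 by 0.58 (-0.26 without background correction) and RBBP4 by 0.50, with 0.50 at another probe of RBBP4 and -0.15 as the mean of its probes. MYBL2, the MYB factor of G2 transcription, detected on 2 of 3 resistant arrays, had -0.34 (95% interval -0.77 to 0.09, adjusted p = 0.169).

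Genes of DNA replication and S phase, the phase before G2, were counted in the same way. Of 47 tested 13 fell (27.7%) and 3 rose (6.38%), beside 29 and 1 of 49. Over all tested genes 23.0% were lower and 22.4% higher. The share of S phase genes that fell thus lay near that of all genes, while the share that rose was smaller. Groups did not overlap for 19 of the 47 that were lower and 5 that were higher, beside 28.6% and 27.4% of all tested genes. The median log2 difference of the S phase genes was -0.05 beside -0.37 for the G2 and M phase genes. The difference between the lists was not tested. RPA3, POLA2, POLE2 and RFC4 fell by 0.93, 0.79, 0.63 and 0.58. CCNE1, MCM5 and LIG1, named after their values were seen, rose by 0.46, 0.44 and 0.39, and 31 genes did not pass the test.

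**Figure D5:**
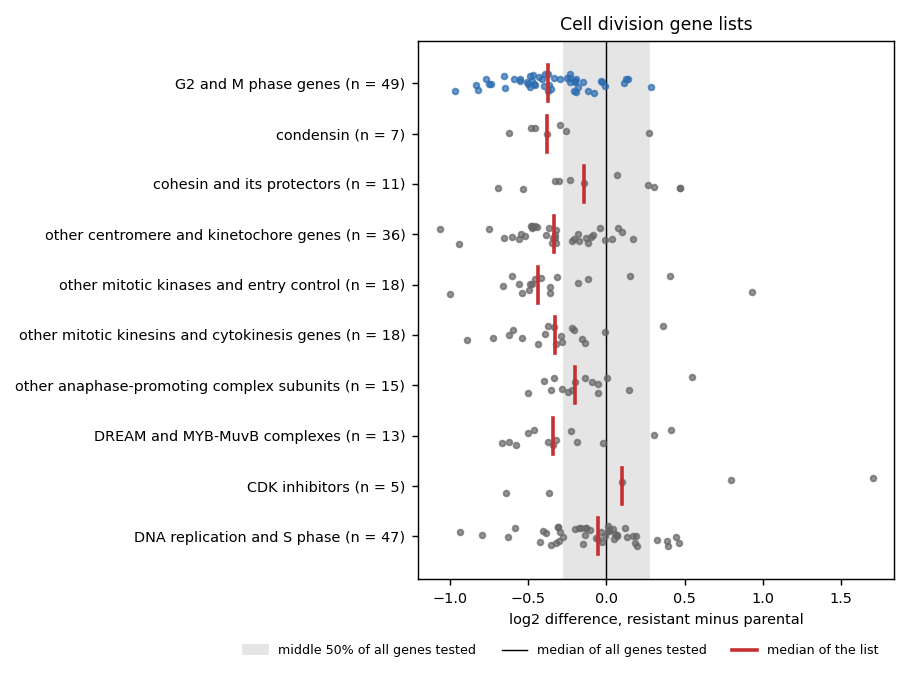
Log2 difference between resistant and parental cells (x axis) of each tested gene (points) in the G2 and M phase genes and in 9 other lists (rows), with the list's median as a red bar and the middle 50% of all tested genes in grey. The medians lie between -0.44 (other mitotic kinases and entry control) and 0.10 (CDK inhibitors), and that of DNA replication and S phase lies at -0.05.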

How the data were processed

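RNA of 3 resistant and 3 parental Ju77 samples was labelled with biotin and hybridised to Illumina arrays, per the labels. The authors deposited, per the file headers, for 47225 probes on each array an intensity and its detection p-value, and a separate table of log2 values whose making the sources used here do not describe. In 3269 rows the 2 columns were exchanged and the intensity stood as its natural log in the deposited file; these rows were restored, and 0 members rest on one.

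Here intensities were background-corrected from the detection p-values (normexp, offset 16), quantile normalised and taken to log2 with limma 3.58.1 in R 4.3.3. Probes with a detection p under 0.05 on all 3 arrays of a group were kept (17843), and each gene was represented by its brightest kept probe. Differences, resistant minus parental, were tested with lmFit and eBayes, adjusted by Benjamini-Hochberg over 10672 genes, and called at an adjusted p under 0.05. The number of arrays limits the precision. Probes were named from the platform annotation, 30111 with 1 gene name, 8 with several and 17106 unlisted. All measured members were named, and from each other list up to 4 called genes with the largest difference and no overlap between groups, plus CDKN1A and MYBL2. Members and lists were chosen with earlier results of these data known. Alternatives changed the background step, normalisation, filter, probe, variance model and arrays, added the replicate number as a block, or took the deposited log2 values. Figures were drawn with matplotlib 3.10.9 in Python 3.11.15.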

Additional observations from a re-analysis of the deposited data

How the results depend on the processing

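Over 19 other settings 25 to 39 members were called lower, and 25 members were called lower in all of them. Leaving out 1 array at a time gave 25 (without parental replicate 3) to 32 members lower (without resistant replicate 1), 0 to 1 higher and a median log2 difference of -0.38 to -0.35. Scaling to a common median gave 39 lower, 0 higher (limma, 0 also at an unadjusted p under 0.05) and a median of -0.56, with 35.4% of all genes lower and 13.7% higher. The mean of the kept probes gave 0 higher (1 at an unadjusted p under 0.05). Each member less its neighbours had a median of -0.31. Samples of the same replicate number did not deviate together (correlations of -0.07, -0.0011 and 0.05), so the numbers were not taken to pair the samples, and with the replicate number as a block 29 members were lower and 1 higher, while ANAPC7, which is no member, was not called (adjusted p = 0.0515). Signs turned only for small differences or at other probes. TTK had 0.00742 with cyclic loess and KIF4A had 0.0124 with array weights. Leaving out 1 array gave -0.0378 to 0.0225 for TTK (positive without resistant replicate 3 or parental replicate 2), -0.0742 to 0.0421 for KIF4A (positive without the same arrays), -0.161 to 0.0262 for NDC80 and -0.0709 to 0.000973 for DLGAP5 (both positive without parental replicate 2). With median scaling NUSAP1 had -0.0884, GTSE1 -0.00211 and TOP2A -0.0662. At the kept probe with the largest spread KIF23 had 0.11, SPC25 0.14, NUSAP1 -0.30, RACGAP1 0.00722 and RBBP4 0.50, and with the mean of its probes NUSAP1 had -0.0920. The cause was not tested. For the dim probes of ESPL1 and MKI67 the size depended on the background step. Their differences were -0.97 and -0.84 in the main fit, against -0.41 and -0.32 without background correction.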

Other observations

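The resistant arrays differed among themselves in the G2 and M phase genes. Resistant replicate 3 was the lowest of its group for 27 of 49 genes, resistant replicate 1 for 17 and resistant replicate 2 for 5. The widest spreads on the resistant arrays were those of NUF2 (0.80 log2 units), BUB1B (0.57) and CDC20 (0.48), and on the parental arrays those of NEK2 (0.57) and MKI67 (0.48). In NUF2 resistant replicate 1 lay above all parental arrays while the other resistant arrays lay below them.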
